A study of Mus musculus with 6 samples.

Results

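The genes of the respiratory chain were followed in RNA-seq libraries of sorted mouse mammary cells. They were taken by symbol alone, as every gene whose symbol follows the naming pattern of the mitochondrial messages or of the Nduf, Sdh, Uqcr, Cox and Atp5 subunit families, so that subunits with other symbols are not included. This gave 97 of the 55291 symbols counted, 13 of them encoded in mitochondrial DNA and 84 in the nucleus. Of the nuclear genes, 36 belong to complex I, 4 to complex II, 8 to complex III, 19 to complex IV and 17 to complex V. This follows the symbols, so Ndufa4 is counted with complex I although it is now known as a subunit of complex IV, and complex IV includes Cox6c2, which is annotated as a processed pseudogene and had 7 to 40 counts. The question was how the products of the mitochondrial genome and of the nucleus compare across Gpr125 populations. The 6 libraries came from mammary glands of pubertal Adgra3-lz/+ females aged 6 weeks, with tissue of 5 mice pooled in each, whereas the study's methods give a wider age range and fewer mice per preparation. Every library, controls included, carries the same heterozygous allele, in which a β-galactosidase fusion expressed from the Adgra3 locus reports Gpr125. Cells positive for CD31, CD45 or Ter119 were gated out, cells high for CD49f (integrin α6) were kept, and these were sorted on the fluorogenic β-galactosidase substrate FDG. The study's methods also list a CD140a antibody with the same biotin label as those against CD31, CD45 and Ter119. There were 2 libraries each of TEB-distal Gpr125+ cells (from the side of the gland with the terminal end buds), nipple-proximal Gpr125+ cells (from the side next to the nipple) and Gpr125-negative cells. The study took Gpr125-negative cells from both regions, but the labels do not say which region either Gpr125-negative library came from, so both served here as the reference of each Gpr125+ population. Nothing in the labels says that replicates were separate sorts, so the p-values measure the spread between these libraries.

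The respiratory chain moves electrons from NADH and succinate to oxygen and uses the released energy to pump protons across the inner mitochondrial membrane. The ATP synthase (complex V) lets the protons flow back to make ATP. Complexes I, III, IV and V are mosaics of subunits made inside mitochondria from mitochondrial DNA and subunits imported from the cytosol, whereas complex II (succinate dehydrogenase) is wholly nuclear. Mitochondrial DNA is transcribed as long precursors from both strands, which are cut into single messages, and the nuclear genes are transcribed one by one. In the mammary gland, contractile basal cells and secretory luminal cells both carry this machinery.

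The libraries held between 20134890 and 37296640 counts, so that 3 counts corresponded to 0.0804 to 0.149 CPM (counts scaled to a common library size), a floor that covers counting error only. Levels below are normalized CPM, scaled with edgeR's TMM factors, and levels compared between genes are further divided by the annotated exon length in kb. Replicates spread widely around their group, with a biological coefficient of variation of 0.967 in edgeR's fit. Pairs of values are replicate 1 and then replicate 2, and where no group is named the pairs follow the order Gpr125-negative, TEB-distal, nipple-proximal. Adgra3, the gene whose reporter was sorted on, had 1658 and 550 counts in the Gpr125-negative pair, 385 and 142 in the TEB-distal pair and 391 and 262 in the nipple-proximal pair. Its level was thus not lower in the libraries labelled Gpr125-negative (log2 fold change −1.45 ± 0.92 (SE) for TEB-distal cells, edgeR adjusted p = 0.982). The 9 basal markers summed to 3379 and 3501 normalized CPM in the Gpr125-negative pair, 3804 and 21922 in the TEB-distal pair and 9278 and 14599.5 in the nipple-proximal pair. The 7 endothelial markers, CD31's gene Pecam1 among them, summed to 746 and 654 normalized CPM in the libraries labelled Gpr125-negative, against 7.59 to 87.9 in the 4 Gpr125+ libraries. Luminal markers summed to 1424 to 2905 over all 6. The part of these other cells in the results below was not tested.

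Transcripts of the mitochondrial genome took a very different share of the 2 libraries of a group. In the Gpr125-negative pair the 13 genes held 0.255% and 2.33% of all counts. In TEB-distal Gpr125+ libraries they held 2.80% and 0.615%, and in nipple-proximal Gpr125+ libraries 1.19% and 1.99%. The low libraries, Gpr125-negative replicate 1 and TEB-distal replicate 2, belong to different groups, and the 3 groups overlap. The group means were 1.29% ± 1.47 (SD, n = 2), 1.71% ± 1.55 and 1.59% ± 0.57, so they differed by less than the spread between replicates. In bulk RNA, fewer cells of a type and less RNA per cell cannot be told apart.

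The 84 nuclear genes moved less, and in part the other way. They held 1.71% and 0.907% of counts in the Gpr125-negative pair, 1.08% and 1.23% in the TEB-distal pair and 1.10% and 0.698% in the nipple-proximal pair. In each group the replicate with the higher mitochondrial share had the lower nuclear share. The ratio of mitochondrial-encoded to nuclear-encoded counts, which needs no scaling between libraries, was 0.149 and 2.57 in the Gpr125-negative pair, 2.60 and 0.501 in the TEB-distal pair and 1.08 and 2.86 in the nipple-proximal pair. Its group means of 1.36 ± 1.71, 1.55 ± 1.48 and 1.97 ± 1.26 (SD, n = 2) again overlap. The 2 mitochondrial ribosomal RNAs, which are not members but come from the same genome, were also lowest in these 2 libraries: 0.0457% and 0.487% of counts, 0.346% and 0.143%, and 0.162% and 0.429%, in the same order of libraries.

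**Figure D1:**
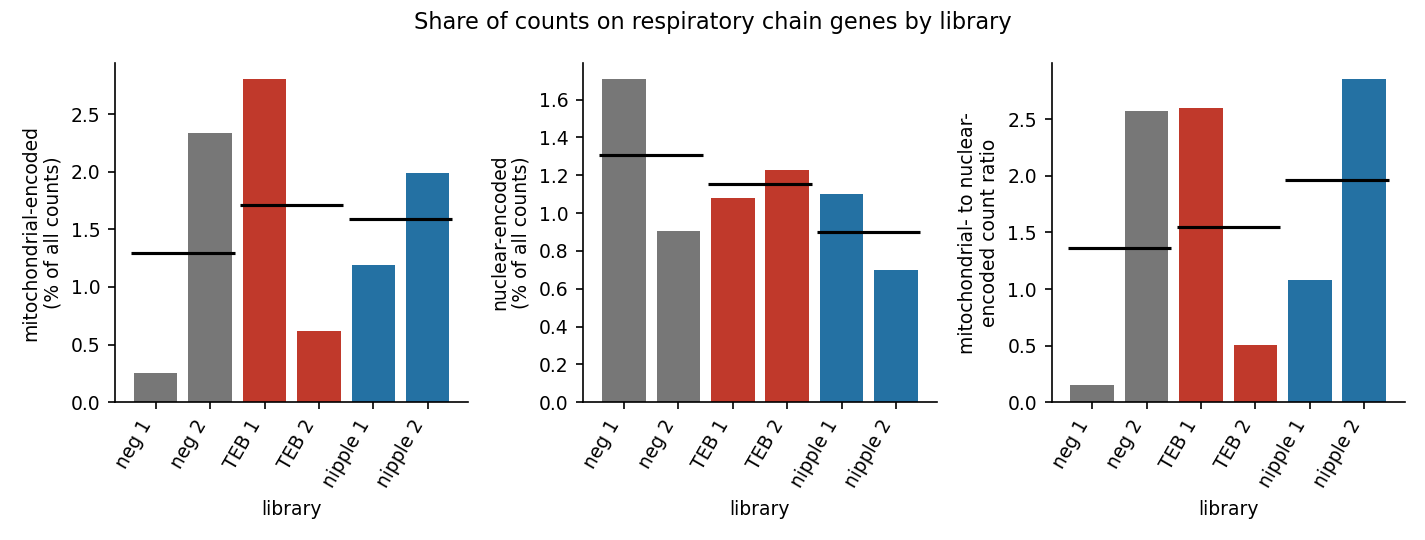
Share of all counts on the 13 mitochondrial-encoded genes, on the 84 nuclear-encoded genes, and the ratio of the 2 sums. Each bar is a library (neg, Gpr125-negative; TEB, TEB-distal Gpr125+; nipple, nipple-proximal Gpr125+) and each black line a group mean. The replicates of a group, such as 0.149 and 2.57 for the ratio in Gpr125-negative libraries, lie further apart than the group means for the mitochondrial share and the ratio.

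Of the 13 mitochondrial genes, 7 carried between 99.7% and 99.9% of the mitochondrial-encoded counts in every library. These were mt-Co1 (the catalytic subunit of complex IV), mt-Cytb (cytochrome b of complex III) and the complex I subunits mt-Nd1, mt-Nd2, mt-Nd4, mt-Nd5 and mt-Nd6. mt-Co1 had 325 and 10413 normalized CPM in the Gpr125-negative pair, 8718 and 1854 in the TEB-distal pair and 3889 and 11615 in the nipple-proximal pair. mt-Cytb had 650.4 and 7294, 8111 and 2084, and 2804 and 4115 in the same order. For both genes Gpr125-negative replicate 1 was the lowest of the 6 libraries and TEB-distal replicate 2 the second lowest.

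mt-Nd1, whose message lies next to the ribosomal RNAs, had 538 and 3519.9 normalized CPM in the Gpr125-negative pair, 4778 and 650.5 in the TEB-distal pair and 2890.4 and 4267 in the nipple-proximal pair. mt-Nd4 had 262 and 2025, 2352 and 847, and 754 and 1339.97. Among the other complex I subunits, mt-Nd2 had between 3283 and 34673 counts and mt-Nd5 between 7739 and 43565, both lowest in Gpr125-negative replicate 1 and highest in its replicate 2. mt-Nd6, the sole member read from the other strand, had 28.3 and 369.9, 274 and 70.6, and 93.6 and 162. Its end overlaps that of mt-Nd5, and since the counts were made without strand, reads from the overlap cannot be assigned to either. All 11 mitochondrial genes tested were higher in Gpr125-negative replicate 2 than in replicate 1, by a median log2 ratio of 3.15, and all 11 were higher in nipple-proximal replicate 2 than in replicate 1, by 0.83. Of the 11, 9 were higher in TEB-distal replicate 1 than in replicate 2, with a median of 1.96.

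The mix of messages also differed between libraries. mt-Co1 was 15.9% of mitochondrial-encoded counts in Gpr125-negative replicate 1 and 39.6% in replicate 2, 32.6% and 30.3% in the TEB-distal pair and 33.1% and 49.2% in the nipple-proximal pair. Per count of mt-Cytb, mt-Co1 had 0.500 and 1.43 counts in the Gpr125-negative pair, 1.07 and 0.890 in the TEB-distal pair and 1.39 and 2.82 in the nipple-proximal pair. Both genes are transcribed from the same strand.

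The other 6 genes, mt-Co2, mt-Atp8, mt-Atp6, mt-Co3, mt-Nd3 and mt-Nd4l, lie in a row between mt-Co1 and mt-Nd4 and had few counts. They encode subunits that every working complex IV, complex V and complex I holds. Together they had 284 and 1406 counts in the Gpr125-negative pair, 436 and 533 in the TEB-distal pair and 191 and 610 in the nipple-proximal pair, or 0.0637% to 0.298% of the mitochondrial-encoded counts. The highest of the 6 reached 3.38 to 23.4 normalized CPM per kb, while the lowest of the other 7 stood at 54.4 to 713 normalized CPM per kb in the same libraries. mt-Co3 had 123 and 504, 198 and 236, and 66 and 243 counts. mt-Co2 had 88 and 472, 101 and 207, and 66 and 196 counts, and mt-Atp8 had 3 and 49, 20 and 3, and 12 and 28. mt-Nd3 had between 1 and 8 counts and mt-Nd4l between 1 and 13, and neither passed the filter on low counts.

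**Figure D2:**
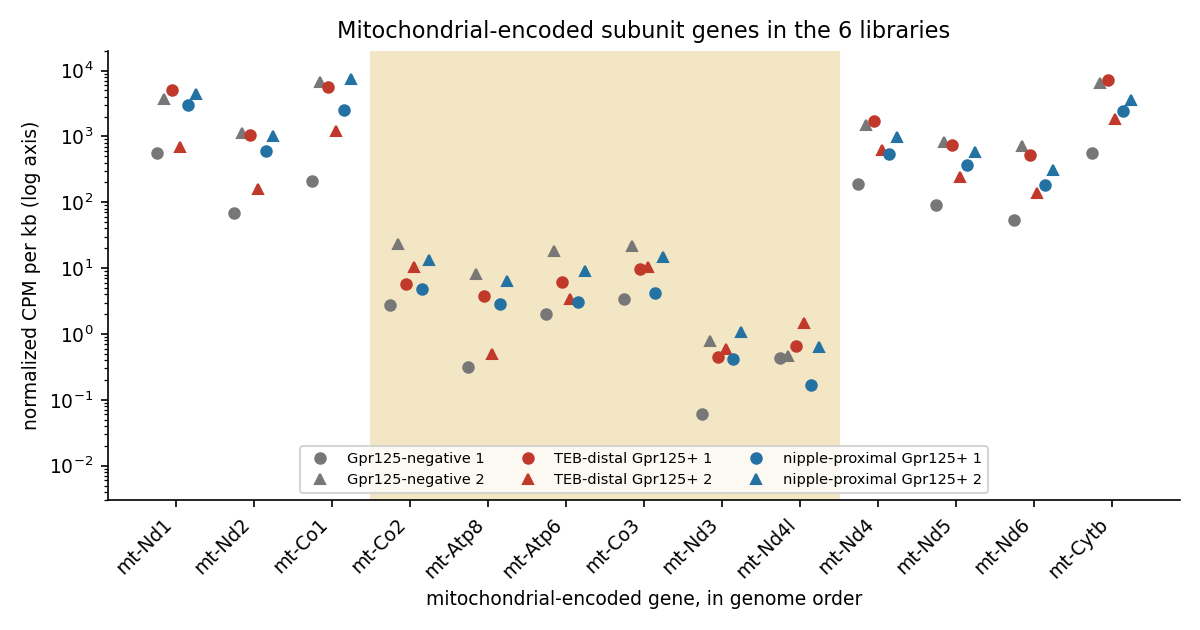
Level of each mitochondrial-encoded gene in normalized CPM per kb of exon (log axis), with the genes in their order along the mitochondrial genome and 1 point per library. The shaded genes, from mt-Co2 to mt-Nd4l, reached at most 23.4 normalized CPM per kb in any library, below the other 7 genes of the same library.

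These 6 genes coincide with a stretch of mitochondrial DNA that has a copy in the nuclear genome. On chromosome 1 of GRCm38, between 24611535 and 24616197 on the minus strand (4663 bases), the GENCODE M21 annotation places pseudogenes in the mitochondrial order: Gm29216 (the end of mt-Co1), Gm28661 (mt-Co2), Gm10925 (mt-Atp6), Gm28437 (mt-Co3), Gm28438 (mt-Nd3), Gm10222 (mt-Nd4l) and Gm28439 (the start of mt-Nd4). Gm28661, Gm10925, Gm28437 and Gm10222 had 0 mismatches to their mitochondrial gene over 681, 678, 783 and 294 bases, Gm28439 had 0 over 876, and Gm28438 had 1 over 345. mt-Atp8, between mt-Co2 and mt-Atp6, has no annotated copy, but the gap between Gm28661 and Gm10925 is 233 bases long and that between mt-Co2 and mt-Atp6 230. The first 60 bases of mt-Co3 (chrM:8607-8666, plus strand) and of Gm28437 (chr1:24613912-24613971, minus strand), with no mismatch to mark, are the same in both places:
mt-Co3: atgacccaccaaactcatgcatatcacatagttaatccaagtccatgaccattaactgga
Gm28437: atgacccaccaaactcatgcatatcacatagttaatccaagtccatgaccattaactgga

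The copy begins inside mt-Co1. Gm29216 covers positions 1054 to 1545 of mt-Co1, counted from the gene's first base, and its 6 mismatches all lie in its first 13 bases. The first 60 bases of this overlap, chrM:6381-6440 (plus strand) against chr1:24616138-24616197 (minus strand), with the mismatched bases in capitals, show the edge of the copy:
mt-Co1: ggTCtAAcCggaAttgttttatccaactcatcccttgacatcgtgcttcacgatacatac
Gm29216: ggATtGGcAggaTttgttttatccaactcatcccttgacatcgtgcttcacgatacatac

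For mt-Co2, mt-Atp6 and mt-Co3 the counts of the copies were of the same order as those of the gene. mt-Nd4l had 1 to 13 counts against 4 to 25 for Gm10222, and mt-Nd3 1 to 8 against 9 to 65 for Gm28438. mt-Co1 and mt-Nd4, copied only in part, had far more counts than their copies. mt-Co1 had 15128 to 307443 against 53 to 422, and mt-Nd4 12187 to 60320 against 4 to 135. mt-Atp6 had 63 and 369, 108 and 68, and 43 and 131 counts, and Gm10925 had 58 and 396, 139 and 108, and 40 and 106. Over the 7 copies the counts summed to 364 and 2583 in the Gpr125-negative pair, 1008 and 910 in the TEB-distal pair and 447 and 1128 in the nipple-proximal pair. How the counting treated reads with 2 equal places is not given in the sources used here, and its part in the low counts was not tested. Stretches of 50 bases found in other annotated transcripts made up 51.1% of mt-Co1, 62.2% of mt-Nd4, 8.19% of mt-Nd2 and 7.61% of mt-Nd5. They made up none of mt-Cytb, mt-Nd1, mt-Nd6 and mt-Atp8, so the counts of those genes do not share reads with another annotated transcript over that length. mt-Atp8 belongs to the low-count genes all the same. The unannotated gap between Gm28661 and Gm10925 was not compared with it. mt-Cytb starts at chrM:14145-14204 (plus strand) with a stretch that no other annotated transcript holds:
mt-Cytb: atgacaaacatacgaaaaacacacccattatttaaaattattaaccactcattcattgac

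Among the nuclear subunits, complex I offers the most members. It takes electrons from NADH, and its 36 nuclear genes had a median level of 59.6 and 24.1 normalized CPM per kb in the Gpr125-negative pair, 31.3 and 46.4 in the TEB-distal pair and 45.2 and 30.5 in the nipple-proximal pair. Ndufv1, which binds the flavin that receives the electrons of NADH, had 165 and 43.8 normalized CPM in the Gpr125-negative pair, 51.1 and 104 in the TEB-distal pair and 135 and 94.5 in the nipple-proximal pair. It was highest in Gpr125-negative replicate 1 and lowest in replicate 2 of that group. Ndufs1, the large iron-sulfur subunit, ran the other way within that pair, with 45.4 and 96.7, 81.6 and 32.5, and 53.6 and 43.8.

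The member of complex I furthest from equality was Ndufb7, an accessory subunit of the membrane arm. It had 169.7 and 24.5 normalized CPM in the Gpr125-negative pair, 17.9 and 26.2 in the TEB-distal pair and 40.8 and 19.7 in the nipple-proximal pair. A single library, Gpr125-negative replicate 1, stood above all others, and the groups overlapped. The log2 fold change was −2.14 ± 0.98 (SE) for TEB-distal against Gpr125-negative cells, with edgeR's unadjusted p = 0.0623 and adjusted p = 0.843. For nipple-proximal against Gpr125-negative libraries it was −1.68 ± 0.97, which turned to 0.18 ± 0.82 without Gpr125-negative replicate 1. Ndufs7, the core subunit with the last iron-sulfur cluster, had 254 and 43.1, 56.9 and 79.8, and 112 and 60.02 normalized CPM, with the same high library and a log2 fold change of −1.12 ± 0.90 for TEB-distal against Gpr125-negative cells, or 0.54 ± 0.78 without it. Ndufc2, an accessory subunit, had 32.96 and 16.9, 77.5 and 17.3, and 39.8 and 37.3, and its 0.93 ± 0.86 in the same comparison became −0.52 ± 0.84 without TEB-distal replicate 1.

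Complex II, which oxidizes succinate and links the chain to the citric acid cycle, varied less. Sdha, the flavin subunit, had 158 and 105 normalized CPM in the Gpr125-negative pair, 137 and 75.3 in the TEB-distal pair and 116 and 119 in the nipple-proximal pair. Sdhb, with the iron-sulfur clusters, had 220.2 and 107, 83.01 and 176, and 162 and 139. The membrane anchors Sdhc and Sdhd had 45.4 to 109 and 115 to 188 over the 6 libraries. None of the 4 had a log2 fold change beyond 0.35 in size in any comparison, with a median SE of 0.68.

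Complex III passes electrons from ubiquinol to cytochrome c. Uqcrfs1, its Rieske iron-sulfur protein, was the steadiest nuclear member: 116 and 88.6 normalized CPM in the Gpr125-negative pair, 82.5 and 114 in the TEB-distal pair and 103 and 89.97 in the nipple-proximal pair, a highest-to-lowest ratio of 1.41. The median of that ratio was 3.06 over the 77 nuclear members tested that had counts in every library. Uqcrc1, a core protein, had 551 and 115, 169 and 344, and 387 and 259. Uqcrb, a small subunit at the ubiquinone site, had 84.4 and 829, 577 and 190.4, and 277 and 308, the reverse order of Uqcrc1 within the first 2 groups. Uqcrb shares 43.4% of its 50-base stretches with other annotated transcripts, so its counts are uncertain. Uqcr11 had 343 and 39.8, 51.1 and 129, and 99.3 and 55.2, and its log2 fold change for TEB-distal against Gpr125-negative cells went from −1.09 ± 1.03 to 1.06 ± 0.88 without Gpr125-negative replicate 1. Uqcrh, the hinge protein, had 199 and 163, 109.99 and 304, and 123 and 87.3.

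Complex IV, cytochrome c oxidase, hands the electrons to oxygen, and several of its nuclear subunits come as a usual form and a form known from muscle, lung or testis. Cox4i1 had 505 and 241 normalized CPM in the Gpr125-negative pair, 210.00 and 652 in the TEB-distal pair and 276 and 221 in the nipple-proximal pair. Cox5a had 146 and 196, 105 and 140.1, and 131 and 119, lower in all 4 Gpr125+ libraries than in both Gpr125-negative ones, with log2 fold changes of −0.48 ± 0.63 and −0.45 ± 0.63. Cox6c had 129 and 168, 159 and 137, and 128 and 83.2, and Cox7c 43.4 and 33.4, 40.2 and 39.3, and 29.5 and 27.9. Cox5a has 32.0% and Cox7c 27.9% of its 50-base stretches in other annotated transcripts, so their counts are uncertain. Cox7a2 had 179 and 165, 127 and 169, and 95.2 and 74.1, with both nipple-proximal libraries below the other 4 and log2 fold changes of −1.03 ± 0.63 against Gpr125-negative cells (edgeR adjusted p = 1) and 0.81 ± 0.62 for TEB-distal against nipple-proximal cells.

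Cox7a2l, a relative of Cox7a2 known from supercomplexes, had 17.3 and 20.4, 18.9 and 41.5, and 26.9 and 34.7, with log2 fold changes of 0.68 ± 0.74 and 0.71 ± 0.74 against Gpr125-negative libraries.

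The lowest p-values among the members belonged to Cox6a2, the subunit VIa form of heart and skeletal muscle (chr7:128205435-128206387, minus strand). It had 0 and 0 counts in the Gpr125-negative pair, 14 and 386 in the TEB-distal pair and 13 and 50 in the nipple-proximal pair. In normalized CPM the Gpr125+ libraries had 0.546 and 13.1, and 0.638 and 2.35, so every Gpr125+ library lay above both Gpr125-negative ones. Measured against a floor of 3 counts per Gpr125-negative library, the group mean was at least 82.4-fold higher in TEB-distal cells and at least 18.0-fold higher in nipple-proximal cells. The first bound rests on TEB-distal replicate 2, and replicate 1 alone gave at least 6.57-fold. The fitted log2 fold changes were 10.62 ± 3.0 and 8.43 ± 2.79, which depend on edgeR's prior count, with unadjusted p = 0.0103 and 0.0205 and adjusted p = 0.803 and 1, so the call rule was not met. DESeq2 on the 4 compared libraries gave adjusted p = 0.00196 and 0.0794 and called the gene in both comparisons. Cox6a2 passed the filter on low counts through the Gpr125+ libraries alone, so it had to differ to be tested. Its folds and p-values describe these counts and are not separate support for a difference.

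The level stayed small beside the usual form. Cox6a1 had 430.3 and 98.8 normalized CPM in the Gpr125-negative pair, 107 and 353 in the TEB-distal pair and 207 and 150.04 in the nipple-proximal pair. Cox6a2 made up 0% and 0%, 0.507% and 3.59%, and 0.308% and 1.54% of the counts of the pair. The gene lies inside Itgad, on the opposite strand, over its full 953 bases, and the counts ignore strand. Itgad had 0 and 12, 6 and 0, and 0 and 0 counts, with 6 in TEB-distal replicate 1 and 0 in TEB-distal replicate 2, where Cox6a2 was highest. The 6 striated muscle markers summed to 0.839 and 5.01 normalized CPM in the Gpr125-negative pair, 5.38 and 0.0340 in the TEB-distal pair and 1.42 and 3.86 in the nipple-proximal pair. Myh1 and Myh4 were at 0 in all 6 libraries. Ckm, Tnnt3 and Mb were at 0 in TEB-distal replicate 2, and the muscle marker sum was lowest there and highest in TEB-distal replicate 1. The part of Itgad reads and of muscle cells in the Cox6a2 counts was not tested.

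**Figure D3:**
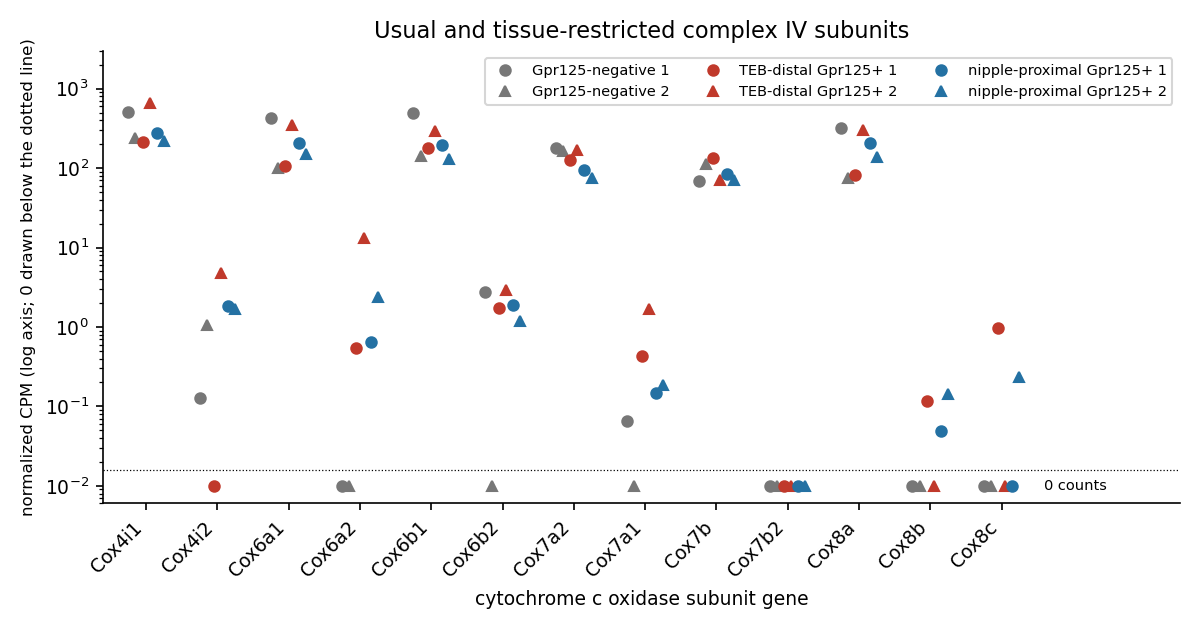
Normalized CPM (log axis) of the usual and the tissue-restricted subunits of complex IV, with 1 point per library and libraries with 0 counts drawn below the dotted line. Cox6a2 is at 0 in both Gpr125-negative libraries and between 0.546 and 13.1 in the Gpr125+ libraries, under every value of Cox6a1.

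Other restricted forms were also near the floor. Cox7a1, the muscle form of subunit VIIa (chr7:30184144-30186078, plus strand), had 3 and 0 counts in the Gpr125-negative pair, 11 and 50 in the TEB-distal pair and 3 and 4 in the nipple-proximal pair. Both TEB-distal libraries lay above the other 4, but the gene passed the filter on low counts through the TEB-distal libraries alone and its counts elsewhere are near the floor, so no fold is given. Cox4i2, the form of subunit IV known from lung and from oxygen-sensing cells, had 6 and 31, 0 and 140, and 37 and 36 counts, with TEB-distal replicates at both ends. Cox6b2, the testis form of VIb, had 129 and 0, 45 and 86, and 39 and 25, whereas Cox6b1 had 142 to 496 normalized CPM in Gpr125-negative and 130 to 291 in Gpr125+ libraries. The restricted forms made up at most 3.59% of the counts of a pair, for Cox6a2 in TEB-distal replicate 2. Cox8b and Cox8c did not pass the filter, with Cox8c at 25 counts in TEB-distal replicate 1, at 5 in nipple-proximal replicate 2 and at 0 elsewhere, and Cox7b2 was at 0 in all 6 libraries. Their usual partners Cox8a and Cox7b had 74.4 to 322 and 69.0 to 134 normalized CPM.

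Complex V turns the proton gradient into ATP. Atp5b, the catalytic β subunit, had 1231 and 1190.3 normalized CPM in the Gpr125-negative pair, 897 and 1344 in the TEB-distal pair and 1491 and 1187 in the nipple-proximal pair. Atp5a1, the α subunit, had 428 and 293, 341 and 371, and 573 and 483. It overlaps Haus1, and the counts ignore strand. Both nipple-proximal libraries were above the other 4, with log2 fold changes of 0.55 ± 0.67 against Gpr125-negative cells and −0.57 ± 0.67 for TEB-distal against nipple-proximal cells, both with edgeR adjusted p = 1. Atp5k, subunit e of the membrane part, had 58.4 and 15.1, 18.3 and 31.5, and 19.99 and 7.81.

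Per kb, mt-Co1 and mt-Cytb led all members, with means over the 6 libraries of 3971 and 3651 normalized CPM per kb. The highest nuclear means were those of Ndufa4 at 568 and Ndufa1 at 472, but the leading nuclear gene differed between libraries: Cox6b1 and Uqcrb in the Gpr125-negative pair, Ndufa4 and Ndufa1 in the TEB-distal pair and the same 2 in the nipple-proximal pair. In Gpr125-negative replicate 1 mt-Co1 did not lead the nuclear genes and was at 211 normalized CPM per kb there, below Ndufa4 (530) and the nuclear complex IV genes Cox6b1 (701), Cox6a1 (613), Cox8a (520) and Cox4i1 (326). Exon lengths were known for 81 of the 84 nuclear members.

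No member met the call rule of adjusted p under 0.1 with 2-fold or more between groups in any of the 3 comparisons by edgeR's quasi-likelihood test, nor did any of the 17268 genes tested (0% called). Of the 97 members 92 passed the filter, 11 mitochondrial and 81 nuclear. At an unadjusted p under 0.05 edgeR counted 1 member for TEB-distal and 1 for nipple-proximal against Gpr125-negative cells, Cox6a2 each time. Between the Gpr125+ populations it counted 0. Cox6a2 passed the filter through the Gpr125+ libraries alone and so had to differ to be tested. Over all genes, 3.80% were higher and 2.25% lower in the first comparison at that p, 2.62% and 0.927% in the second, and 0.747% and 1.46% in the third. DESeq2 on the 4 compared libraries called 1, 1 and 0 members, again Cox6a2, where it called 2.00%, 0.938% and 0.990% of all genes as higher in the first group. The first and second comparisons share the Gpr125-negative libraries.

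For TEB-distal against Gpr125-negative cells the median log2 fold change was −0.02 over the 11 mitochondrial genes, −0.10 over the 81 nuclear genes and 0.03 over all genes tested. The mitochondrial genes ranged from −1.08 (mt-Atp6) to 0.48 (mt-Nd4), with a median SE of 1.28. Of the nuclear genes 31 had a positive and 50 a negative log2 fold change, where all genes split 51.1% and 48.9%. In 2 the TEB-distal libraries lay above both Gpr125-negative ones (Cox6a2 and Cox7a1), where 14.0% of all genes did. Cox6a2 and Cox7a1 passed the filter through Gpr125+ libraries alone. In 1 (Cox5a) the TEB-distal libraries lay below, where 10.0% of all genes did.

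For nipple-proximal against Gpr125-negative cells the medians were −0.13 for mitochondrial, −0.38 for nuclear and −0.0032 for all genes. Of the 81 nuclear genes 14 had a positive and 67 a negative log2 fold change (all genes, 49.6% and 50.2%), and by complex the medians were −0.42 (complex I), −0.15 (II), −0.51 (III), −0.34 (IV) and −0.53 (V). The libraries did not overlap in 6 nuclear genes with higher values, Atp5a1, Cox4i2, Cox6a2, Cox7a1, Cox7a2l and Ndufc2 (all genes, 19.9%). Of these, Cox7a1 had 3 and 4 counts against 3 and 0, so its order rests on the scaling of libraries. Cox4i2 (37 and 36 against 6 and 31 counts) and Cox6a2 (13 and 50 against 0 and 0) also had few counts. In 12 nuclear genes the nipple-proximal values were lower without overlap (all genes, 10.8%). The 12 were Ndufa5, Ndufa6, Ndufb3, Uqcrh, Cox5a, Cox6c, Cox7a2, Cox7c, Atp5g3, Atp5h, Atp5l and Atp5mpl. Atp5l has 84.8% and Atp5h 47.9% of its 50-base stretches in other annotated transcripts, so their counts, like those of Cox5a and Cox7c, are uncertain. The nuclear median was 0.05 without Gpr125-negative replicate 1, so it rests on that library.

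For TEB-distal against nipple-proximal cells the medians were −0.18, 0.35 and 0.06. Here 61 nuclear genes had a positive and 20 a negative log2 fold change, where all genes split 52.6% and 47.4%. In 15 nuclear genes both TEB-distal libraries lay above both nipple-proximal ones, where 15.2% of all genes did, and in 2 below (Atp5a1 and Ndufv3), where 18.3% of all genes did. The 15 were Ndufa1, Ndufa5, Ndufb2, Ndufb3, Ndufs4, Ndufs5, Cox6c, Cox7a1, Cox7a2, Cox7c, Atp5g3, Atp5j, Atp5l, Atp5md and Atp5mpl. Cox7a1 passed the filter on low counts through the TEB-distal libraries alone, so it had to differ to be tested. Atp5l has 84.8% and Ndufs5 31.1% of its 50-base stretches in other annotated transcripts, so their counts are uncertain. The groups overlapped for all 11 mitochondrial genes in each of the 3 comparisons. The lowest unadjusted p belonged to Ndufa5, an accessory subunit of complex I. It had 102 and 63.4 normalized CPM in TEB-distal, 47.2 and 34.6 in nipple-proximal and 58.4 and 73.3 in Gpr125-negative libraries, and its log2 fold change of 1.01 ± 0.63 had edgeR's unadjusted p = 0.148 and adjusted p = 1. Ndufv3, an accessory subunit next to the flavin site, had 14.2 and 37.04 in the TEB-distal pair, 54.6 and 37.2 in the nipple-proximal pair and 47.0 and 3.45 in the Gpr125-negative pair, and its −0.84 ± 1.14 was smaller than its SE. The nuclear median was −0.11 without TEB-distal replicate 2.

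**Figure D4:**
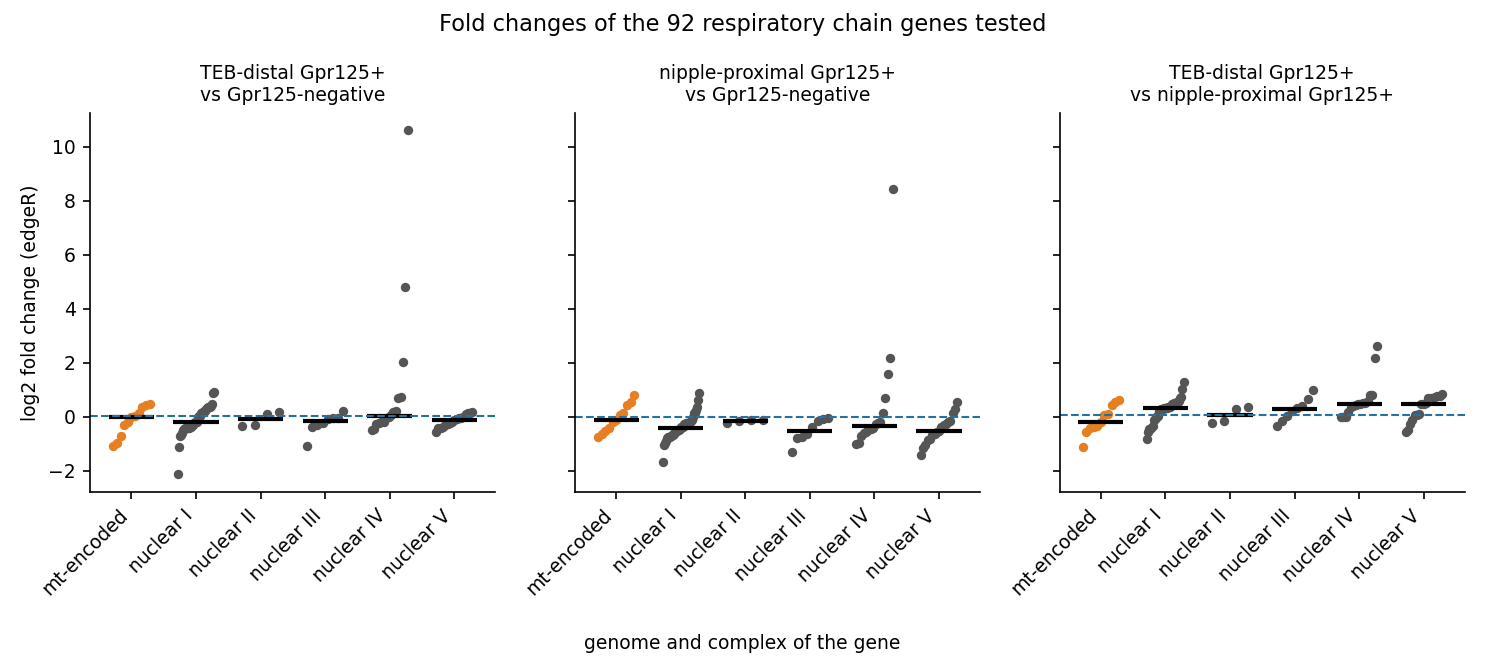
Log2 fold changes from edgeR of the 92 members tested, 1 point per gene, grouped by genome and complex, in the 3 comparisons. Black bars are medians of a group of genes and the dashed line is the median of all genes tested. The mitochondrial medians of −0.02, −0.13 and −0.18 lie close to 0. The 2 highest points in the left panel are Cox6a2 (10.62) and Cox7a1. Both genes passed the filter through Gpr125+ libraries alone, and their fitted values depend on edgeR's prior count.

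The spread between replicates had an order of its own. Of 81 nuclear members 48 differed by 2-fold or more between the Gpr125-negative libraries, 40 between the TEB-distal and 10 between the nipple-proximal ones. All genes tested spread more. The median absolute log2 ratio between replicates was 1.09, 0.99 and 0.40 over these members and 1.61, 1.18 and 0.58 over all genes. The replicate ratio fell along the GC content of the transcript: with the replicate of higher mitochondrial share on top, Spearman's rho was −0.64 for the Gpr125-negative pair, −0.58 for the TEB-distal pair and −0.35 for the nipple-proximal pair over 78 nuclear members with a coding transcript. Over 13525 tested genes it was −0.42, −0.48 and −0.28. The genes of such a correlation share their libraries and are not independent. The 26 nuclear members lowest in GC (up to 49.0%) summed to 0.539 and 1.85 times the 26 highest in GC (54.4% or more) in the Gpr125-negative pair, 1.63 and 0.683 times in the TEB-distal pair and 0.810 and 0.899 times in the nipple-proximal pair.

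The mitochondrial genes lie below most of this range, with transcript GC contents of 31.9% to 41.1% against a median of 51.6% for the nuclear members. The libraries with the least mitochondrial message, Gpr125-negative replicate 1 and TEB-distal replicate 2, were also those in which GC-rich nuclear members outweighed GC-poor ones most. When each library's trend of level on GC content was removed, a step added after the data were seen, the median log2 CPM of the mitochondrial genes went from 6.16 and 10.28 to 7.67 and 9.56 in the Gpr125-negative pair, from 10.14 and 7.47 to 8.63 and 8.62 in the TEB-distal pair and from 9.28 and 10.03 to 9.21 and 9.40 in the nipple-proximal pair. The medians of the TEB-distal replicates were then closer and those of the Gpr125-negative replicates remained apart. The trend was fitted with the mitochondrial genes included, and these lie at its low-GC end. The step therefore cannot separate GC content from other differences between libraries, and the cause of the spread was not tested. edgeR called 0 members after this step too, and 0 of the 13525 genes tested.

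**Figure D5:**
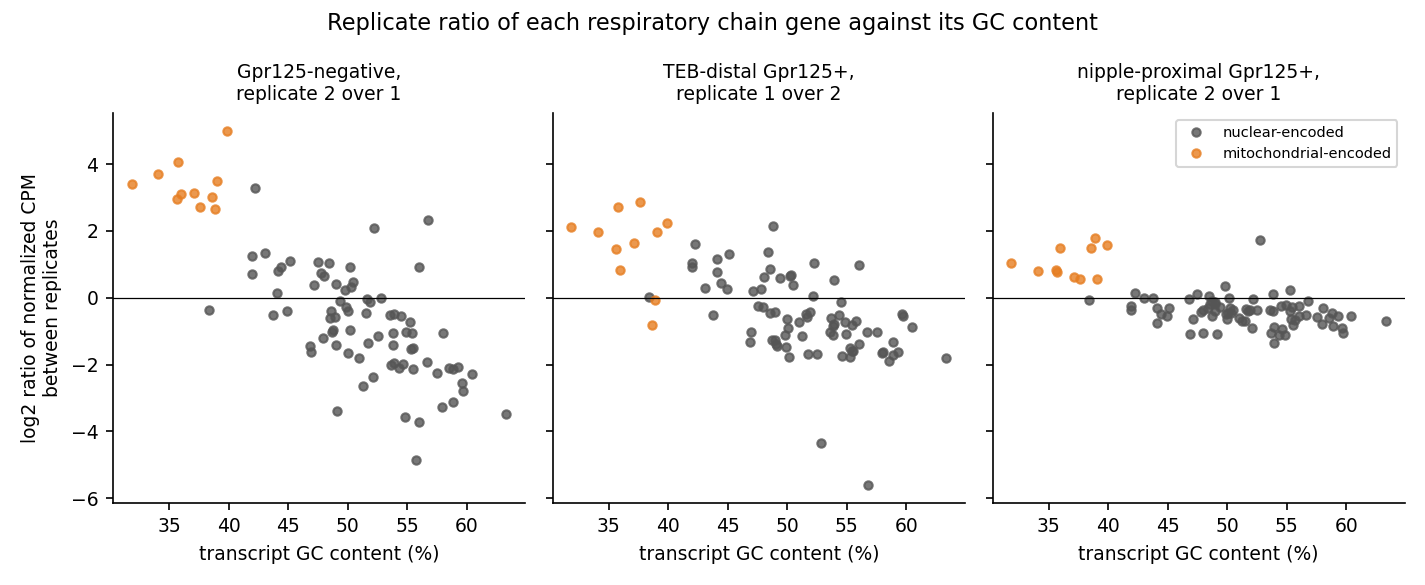
Log2 ratio of normalized CPM between the 2 replicates of a group (pseudocount 0.1) against transcript GC content, 1 point per gene, nuclear members in grey and mitochondrial ones in orange. In Gpr125-negative and TEB-distal libraries the ratio falls from the AT-rich mitochondrial genes to the GC-rich nuclear ones (rho −0.64 and −0.58 over the nuclear members).

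Some starts of nuclear genes hold known motifs, which the choice by symbol did not use. NRF1, the nuclear respiratory factor 1 protein, is known to bind GCGCA, any base and then GCGC, and this motif was found on either strand in 18 of 73 windows around the starts of 68 members with RefSeq sequence (24.7%), against 4.60% of all 32851 windows. Windows ran from 250 bases before to 50 after a start. The ETS motif CCGGAAG, read by GABP, was in 23.3% of the member windows and 8.86% of all, and the YY1 motif AAGATGG in 15.1% and 6.34%. A match is a description and not a binding site. The windows of all genes were not matched to those of the members in GC content, and its part in these shares was not tested. Windows upstream of Sdha (chr13:74350304-74350363), Sdhd (chr9:50603894-50603953) and Cox6a1 (chr5:115349086-115349145), all on the minus strand of GRCm38.p6 (RefSeq), show the motif in capitals in genes whose values are given above:
Sdha: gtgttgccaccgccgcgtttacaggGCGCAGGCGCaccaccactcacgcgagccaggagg
Sdhd: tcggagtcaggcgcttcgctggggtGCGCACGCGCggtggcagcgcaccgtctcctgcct
Cox6a1: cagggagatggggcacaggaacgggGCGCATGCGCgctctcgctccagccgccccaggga

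The regulators that read such motifs were measured as well. Nrf1 had 68.4 and 26.8 normalized CPM in the Gpr125-negative pair, 22.2 and 12.1 in the TEB-distal pair and 49.6 and 42.5 in the nipple-proximal pair, and both TEB-distal libraries were below the other 4 (log2 fold change −1.47 ± 0.75 against Gpr125-negative cells, edgeR adjusted p = 0.872). Gabpa had 19.3 and 87.3, 87.7 and 45.4, and 51.2 and 63.5. Yy1 had 40.7 and 106, 138 and 155, and 93.8 and 140.1, with both TEB-distal libraries above both Gpr125-negative ones. Over all genes, TEB-distal libraries lay below both Gpr125-negative ones in 10.0% and above both in 14.0%. Ppargc1a, the coactivator PGC-1α, had 0 and 812 counts in the Gpr125-negative pair, 43 and 0 in the TEB-distal pair and 3 and 4 in the nipple-proximal pair, so 1 library held nearly all of it. Its relative Ppargc1b had 5 and 0, 29 and 161, and 42 and 33 counts, with every Gpr125+ library above both Gpr125-negative ones. It passed the filter on low counts through the Gpr125+ libraries alone and was near the floor in the others, so no fold is given. Tfam, which packages mitochondrial DNA and starts its transcription, had 20.3 and 58.6 normalized CPM in the Gpr125-negative pair, 51.3 and 25.5 in the TEB-distal pair and 27.8 and 34.8 in the nipple-proximal pair. It was lowest in the 2 libraries with the least mitochondrial message. Polrmt, the mitochondrial RNA polymerase, was at 3162 and 3 counts, 129 and 434, and 543 and 421, and was highest in the library with the least mitochondrial message and lowest in Gpr125-negative replicate 2.

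The other genes of the pathway gave no member that met the call rule in edgeR in any comparison. The 45 assembly factors tested had median log2 fold changes of −0.48 (TEB-distal) and −0.56 (nipple-proximal) against the Gpr125-negative reference and 0.09 between the Gpr125+ populations. The 75 proteins of the mitochondrial ribosome had −0.41, −0.52 and 0.08, and in the first comparison 1 of them (Mrpl58, which frees stalled chains) had an unadjusted p under 0.05 in edgeR. The 12 enzymes of the citric acid cycle had −0.38, −0.13 and −0.27, the 11 genes of mitochondrial DNA maintenance and transcription −0.30, −0.36 and 0.01, and the 13 of mitochondrial RNA processing −0.59, −0.55 and −0.08, with Elac2 (which cuts at transfer RNAs) the 1 under an unadjusted p of 0.05. The 8 regulators had 0.29, 0.17 and 0.11. All genes tested had 0.03, −0.0032 and 0.06. Mitochondrial ribosome genes summed to 4425 and 2628 normalized CPM in the Gpr125-negative pair, 2579 and 2878, and 2890 and 2349 in the others. Gpr125-negative replicate 1 was also highest of the libraries for assembly factors (1285) and citric acid cycle enzymes (1811). Replicate 2 of that group was highest for DNA maintenance (602) and RNA processing (971). How far these medians rest on a single library was not tested. Over these lists edgeR's unadjusted p was under 0.05 for 3 genes in the first comparison (Mrpl58, Elac2 and Ppargc1b) and for 0 in the other comparisons, and DESeq2 on the 4 compared libraries called 1, Ppargc1b, in the first, a gene that had to differ to pass the filter.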

How the data were processed

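RNA was counted in 6 libraries (SMART-Seq HT, full-length cDNA, no molecular identifiers). The authors aligned reads to mm10 with STAR (2.7.3 in the submitters' processing notes, another version in the paper) and counted them per gene with HTSeq without strand; the deposited values are raw counts. Counts were analysed with edgeR 4.0.16 in R 4.3.3: filterByExpr by group, TMM, robust dispersion and quasi-likelihood tests on all 6 libraries, with Benjamini-Hochberg adjustment over 17268 genes. DESeq2 1.42.0 on all 6 or on the 4 compared libraries, other scalings and filters, a replicate block and leaving out each library were alternatives. Errors of log2 fold changes are SEs from the F statistic. Coordinates are from GENCODE M21 (GRCm38). The script was tested on simulated counts. Genes named were all mitochondrial members, core subunits of each complex, tissue-restricted forms with their partners, and the 3 nuclear members of lowest p per direction and comparison; others, such as Uqcrb, Itgad and the nuclear copies, were named after their values were seen. One of the core subunits is not reported here. Members and lists were chosen with earlier results of these data known. Of the lists, fibroblast markers summed to 26.3 to 145 normalized CPM, leukocyte 19.8 to 71.6, pericyte 1.67 to 24.4, adipocyte 0.339 to 11.8 and proliferation 86.1 to 340. The labels do not say that replicate numbers pair the libraries, and the main fit did not pair them.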

Additional observations from a re-analysis of the deposited data

How the results depend on the processing

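The count of members called was 0 in each comparison under each edgeR setting run, except that without a filter on low counts edgeR called 1 (Cox6a2, log2 fold change 10.60 ± 2.97) for TEB-distal against Gpr125-negative cells. DESeq2 called 1 member, Cox6a2, against the Gpr125-negative reference in either Gpr125+ population, with log2 fold changes of 10.36 and 8.05 on all 6 libraries and 10.35 and 8.07 on the 4 compared. Over all genes edgeR called 0 in each comparison, 137, 58 and 39 without the filter and 747, 335 and 0 without Gpr125-negative replicate 1, and DESeq2 943, 321 and 129 on all 6 libraries and 667, 317 and 360 on the 4 compared. Over the 14 alternatives the adjusted p of Cox6a2 ran from 0.000479 to 1 and from 0.0364 to 1 in these comparisons. With the replicate number as a block edgeR called 0 members in all 3 comparisons. Deviations of same-numbered libraries from their group means correlated at −0.035, 0.194 and −0.0049 over all genes tested. The labels do not say whether equal numbers share mice or a sort. These correlations cannot decide it, since the replicates of a group also differ along GC content. Each library was also left out in turn, which leaves 1 library in its group. The median log2 fold change of the mitochondrial genes then ran from −1.26 to 2.52, from −1.02 to 2.28 and from −0.78 to 0.67 in the order of comparisons above, and that of the nuclear genes from −0.61 to 0.42, from −0.62 to 0.05 and from −0.11 to 0.56. The highest mitochondrial values came without Gpr125-negative replicate 2 in the first and second comparisons and without nipple-proximal replicate 2 in the third. The mean mitochondrial share ran from 0.255% to 2.33%, 0.615% to 2.80% and 1.19% to 1.99%, and the ratio from 0.149 to 2.57, 0.501 to 2.60 and 1.08 to 2.86. Signs were compared for the named genes whose log2 fold change was at least its SE in the main fit. Leaving out a library turned 6 of these values. Smaller fold changes and the medians above, some of which also changed sign, are not among the 6. For TEB-distal against Gpr125-negative libraries Ndufs7 ran from −1.90 to 0.54, Uqcr11 from −1.94 to 1.06 and Ndufc2 from −0.52 to 1.63. For nipple-proximal against Gpr125-negative libraries Cox6b1 ran from −1.59 to 0.071 and Ndufb7 from −2.48 to 0.18. Between the Gpr125+ populations Cox6a2 ran from −1.46 (without TEB-distal replicate 2) to 3.39. The cause was not tested. Counts near 3 limit the restricted subunits, and the spread between 2 replicates limits all others.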
